A study of Mus musculus with 80 samples.

Results

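Autophagy is the route by which a cell wraps part of its own cytoplasm in a membrane and delivers it to lysosomes for digestion, and the liver relies on it between meals. A set of 40 genes of autophagy, mitophagy and the lysosome was followed in nuclear RNA of hepatocytes and of liver macrophages from fed and fasted mice. The members were taken by gene symbol from the 20105 genes of the raw count table, and all 40 passed the low-count filter in both kinds of nuclei. By role they were 3 genes of the ULK1 kinase complex (Ulk1, Ulk2, Atg13), 4 of the class III phosphatidylinositol 3-kinase complexes (Becn1, Pik3c3, Atg14, Uvrag), 5 of membrane supply (Atg9a, Atg2a, Atg2b, Wipi1, Wipi2) and 5 of the conjugation machinery (Atg3, Atg5, Atg7, Atg12, Atg16l1). The others were 5 ATG8-family genes (Map1lc3a, Map1lc3b, Gabarap, Gabarapl1, Gabarapl2), 5 cargo and mitophagy receptors (Sqstm1, Nbr1, Optn, Bnip3, Bnip3l), 3 MiT/TFE transcription factors (Tfeb, Tfe3, Mitf), 4 lysosomal membrane proteins (Lamp1, Lamp2, Mcoln1, Npc1) and 6 lysosomal hydrolases (Ctsa, Ctsb, Ctsd, Ctsl, Gla, Hexa).

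The animals were female mice of the HEP-INTACT and MAC-INTACT lines, in which nuclei of one liver cell type carry a tag and are pulled out of a liver homogenate on beads. Food was removed at zeitgeber time 12, the onset of darkness and of feeding in mice, and livers were taken 3, 8, 16 and 24 h later, at zeitgeber times 15, 20, 4 and 12, each beside ad libitum fed mice of the same line and hour. Each of the 16 groups of tagged nuclei had 4 libraries, and each line, feeding state and time also had 1 library of unpurified liver nuclei pooled from 4 mice, which gave 80 libraries. The promoter that drives the tag, the strain and the age of the mice were not given in the sources used here, and neither was whether each tagged library came from a single mouse, so the p-values measure the spread between libraries. Total RNA was sequenced without selection for polyadenylated RNA, so the counts include unspliced transcripts. In tissue fractions of this kind, fewer cells of a type and less RNA per cell cannot be told apart.

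In the pathway, the ULK1 kinase starts the process when mTORC1 is silenced or AMPK is active, and a lipid kinase complex then marks the membrane on which the autophagosome forms. ATG9 and ATG2 supply lipid, the conjugation enzymes attach ATG8 proteins such as LC3B to the growing membrane, and receptors such as p62 (Sqstm1), or BNIP3 and NIX (Bnip3l) on mitochondria, tether cargo to those ATG8 proteins. TFEB, TFE3 and MITF bind E-box elements (CACGTG) in promoters of lysosomal and autophagy genes, and FoxO factors and the fasting-regulated factor CREB are also known to act on autophagy genes in hepatocytes.

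Library totals ranged from 12597786 to 30089561 counts in hepatocyte nuclei, 14968505 to 44694933 in macrophage nuclei and 13246494 to 35514304 in the unpurified pools, and no pair of libraries held identical values. Levels are given as CPM, the count scaled to a common library size. The 18 Kupffer cell and macrophage markers summed to 5190 to 8824 CPM in the macrophage libraries and to 137 to 296 CPM in the hepatocyte libraries. The macrophage libraries also held hepatocyte transcripts: the 20 hepatocyte markers summed to 5517 to 14120 CPM in fed and 8382 to 24610 CPM in fasted macrophage libraries, against 14910 to 37940 CPM in hepatocyte libraries, and none of the 20 was at 0 in any group. A pair of libraries stood apart from their groups. Macrophage fasted 3 h replicate 3 had a hepatocyte marker sum of 24610 CPM, beside 12390 to 12590 CPM in the other 3 libraries of its group, and hepatocyte fasted 8 h replicate 4 had 34990 CPM, beside 14910 to 22240 CPM. Counts of members called in the fasting comparison of their own cell type and time are given with and without these libraries, and member calls lost there are named.

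Promoter sequences were read from RefSeq on GRCm38.p6 for the 32 members with an entry; Map1lc3a, Becn1, Atg16l1, Bnip3l, Atg12, Npc1, Pik3c3 and Ctsb had none. The E-box core CACGTG, which is its own reverse complement, was present between 250 bases before and 50 bases after the start of 11 of the 32 members (34.4%), namely Atg14, Atg3, Atg5, Atg7, Bnip3, Ctsa, Ctsd, Ctsl, Gla, Lamp1 and Mcoln1, beside 8.09% of all 27025 genes with such a window. TCACGTG, a longer form that contains the E-box core, was searched on both strands and was present in 8 of the 32 (25.0%) and in 4.29% of all genes. The exact letters GTAAACA, a form of the FoxO motif, were found on either strand in none of the 32 and in 4.05% of all genes. Other forms of the FoxO motif were not searched. The palindromic CREB motif TGACGTCA was found in 2 of the 32 (6.25%, Atg5 and Mitf) and in 2.03% of all genes. A match is a description of letters, not of a bound site. The windows of Atg7, Ctsa and Mitf, which lie on the plus strand, were inside the gene spans that were counted. They began at bases 114670846, 164833523 and 97991533, where the spans began at 114643097, 164832872 and 97807058. Their matches belong to starts within those genes, and which start was used in these nuclei was not tested. The 250 bases before the start are printed for 3 promoters with E-boxes, in capitals, of genes that rose (Lamp1 and Bnip3) or fell (Mcoln1) in fasted hepatocyte nuclei, and for 3 without, namely the 2 members with the highest log2 change at 3 h (Gabarapl1 and Map1lc3b) and the kinase that starts the pathway (Ulk1).
Lamp1, chr8:13158911-13159160, plus strand: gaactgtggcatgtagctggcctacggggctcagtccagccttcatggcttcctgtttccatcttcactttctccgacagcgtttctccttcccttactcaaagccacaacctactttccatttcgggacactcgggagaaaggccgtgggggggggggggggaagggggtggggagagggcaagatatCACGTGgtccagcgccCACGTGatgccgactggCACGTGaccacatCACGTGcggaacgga
Mcoln1, chr8:3500269-3500518, plus strand: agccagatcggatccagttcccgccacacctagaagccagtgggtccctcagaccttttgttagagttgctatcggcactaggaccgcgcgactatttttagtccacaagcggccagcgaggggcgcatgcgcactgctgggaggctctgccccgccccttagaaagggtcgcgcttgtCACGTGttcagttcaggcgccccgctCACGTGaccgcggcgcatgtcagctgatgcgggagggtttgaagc
Bnip3, chr7:138909507-138909756, minus strand: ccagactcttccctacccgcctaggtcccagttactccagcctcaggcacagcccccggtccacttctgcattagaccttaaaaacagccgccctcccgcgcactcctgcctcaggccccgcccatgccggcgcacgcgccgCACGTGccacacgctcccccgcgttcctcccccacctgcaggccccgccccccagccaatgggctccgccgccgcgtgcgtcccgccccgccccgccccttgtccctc
Gabarapl1, chr6:129532942-129533191, plus strand: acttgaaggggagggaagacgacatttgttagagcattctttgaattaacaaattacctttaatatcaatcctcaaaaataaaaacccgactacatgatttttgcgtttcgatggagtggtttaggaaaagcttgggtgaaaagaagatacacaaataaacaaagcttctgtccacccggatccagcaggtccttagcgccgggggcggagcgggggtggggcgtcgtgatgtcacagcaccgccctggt
Map1lc3b, chr8:121590188-121590437, plus strand: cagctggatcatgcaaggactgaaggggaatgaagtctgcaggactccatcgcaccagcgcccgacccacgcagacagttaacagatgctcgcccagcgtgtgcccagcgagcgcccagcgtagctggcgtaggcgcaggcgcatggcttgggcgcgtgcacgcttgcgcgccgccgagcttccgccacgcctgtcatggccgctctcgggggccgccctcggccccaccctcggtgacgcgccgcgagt
Ulk1, chr5:110810082-110810331, minus strand: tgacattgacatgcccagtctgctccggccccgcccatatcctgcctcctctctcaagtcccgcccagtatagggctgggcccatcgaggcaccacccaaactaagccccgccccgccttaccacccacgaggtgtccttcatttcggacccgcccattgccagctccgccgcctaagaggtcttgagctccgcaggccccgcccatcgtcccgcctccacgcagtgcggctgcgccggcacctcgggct

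The Lamp1 stretch held 4 E-box cores, at 61, 45, 28 and 15 bases before the start, the Mcoln1 stretch 2, at 71 and 45 bases, and the Bnip3 stretch 1, at 108 bases. Gabarapl1, Map1lc3b and Ulk1 had none there. Among the 11 members with an E-box core, 5 were higher and 0 lower in hepatocyte nuclei after 3 h of fasting, with a median log2 change of 0.32; among the 21 without one, 16 were higher and 1 lower, with a median of 0.74. After 8 h the counts were 4 higher and 2 lower of 11, and 14 higher and 0 lower of 21. Of all genes tested in hepatocyte nuclei 19.5% were higher and 20.4% lower at 3 h, and 18.0% and 20.7% at 8 h. Calls were not split by E-box over all genes, and the difference between members with and without an E-box core was not tested.

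Most of the set was more abundant in hepatocyte nuclei 3 h into the fast: 26 of the 40 genes rose and 2, Mitf and Ctsb, fell (edgeR quasi-likelihood test, Benjamini-Hochberg adjusted p under 0.05 over the 12942 genes tested). Across all genes tested 39.9% passed that threshold, 19.5% higher and 20.4% lower. The median log2 change was 0.57 over the set and -0.029 over all genes tested. After 8 h 23 members were higher and 3 lower, beside 18.0% and 20.7% of all genes (38.7% in all), and 21 members were higher at both times. After 16 h the counts were 2 higher and 2 lower, beside 9.55% and 8.55% of all genes (18.1% in all), and after 24 h 6 higher and 2 lower, beside 11.6% and 12.4% (24.0% in all). In 30 of the 40 the 4 fasted and 4 fed libraries did not overlap at 3 h, in 21 at 8 h, in 3 at 16 h and in 10 at 24 h, beside 41.1%, 36.4%, 15.7% and 25.1% of all genes tested. Without hepatocyte fasted 8 h replicate 4 the 8 h count was 22 in place of 26, with Pik3c3, Gabarapl2, Lamp2 and Ctsb no longer called. At 16 h the count of 4 became 2 without fasted replicate 3 or fed replicate 2 or 3, and at 24 h the count of 8 became 3 without fasted replicate 4 and 5 without fasted replicate 1 or fed replicate 1, 3 or 4. The marker sums of these libraries moved too: at 3 h the median hepatocyte sum was 20260 CPM fed and 31350 CPM fasted, with 8 of 20 markers higher and 2 lower, and the median Kupffer cell sum was 148 CPM fed and 268 CPM fasted, with 3 of the 17 markers tested higher and 1 lower. At 8 h the Kupffer cell medians were 155 CPM fed and 234 CPM fasted, with 6 of the 17 higher and none lower, and at 16 and 24 h 1 and 2 were higher and 0 and 1 lower. Of the 6 cholangiocyte markers tested 2, 2, 1 and 2 were lower at the 4 times and none higher; the median sum of all 8 was 412 CPM fed and 173 CPM fasted at 3 h and 515 and 157 CPM at 8 h. Of 10 sinusoidal endothelial markers 1, 3, 1 and 5 were higher at the 4 times. Their part in the members' changes was not tested.

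**Figure D1:**
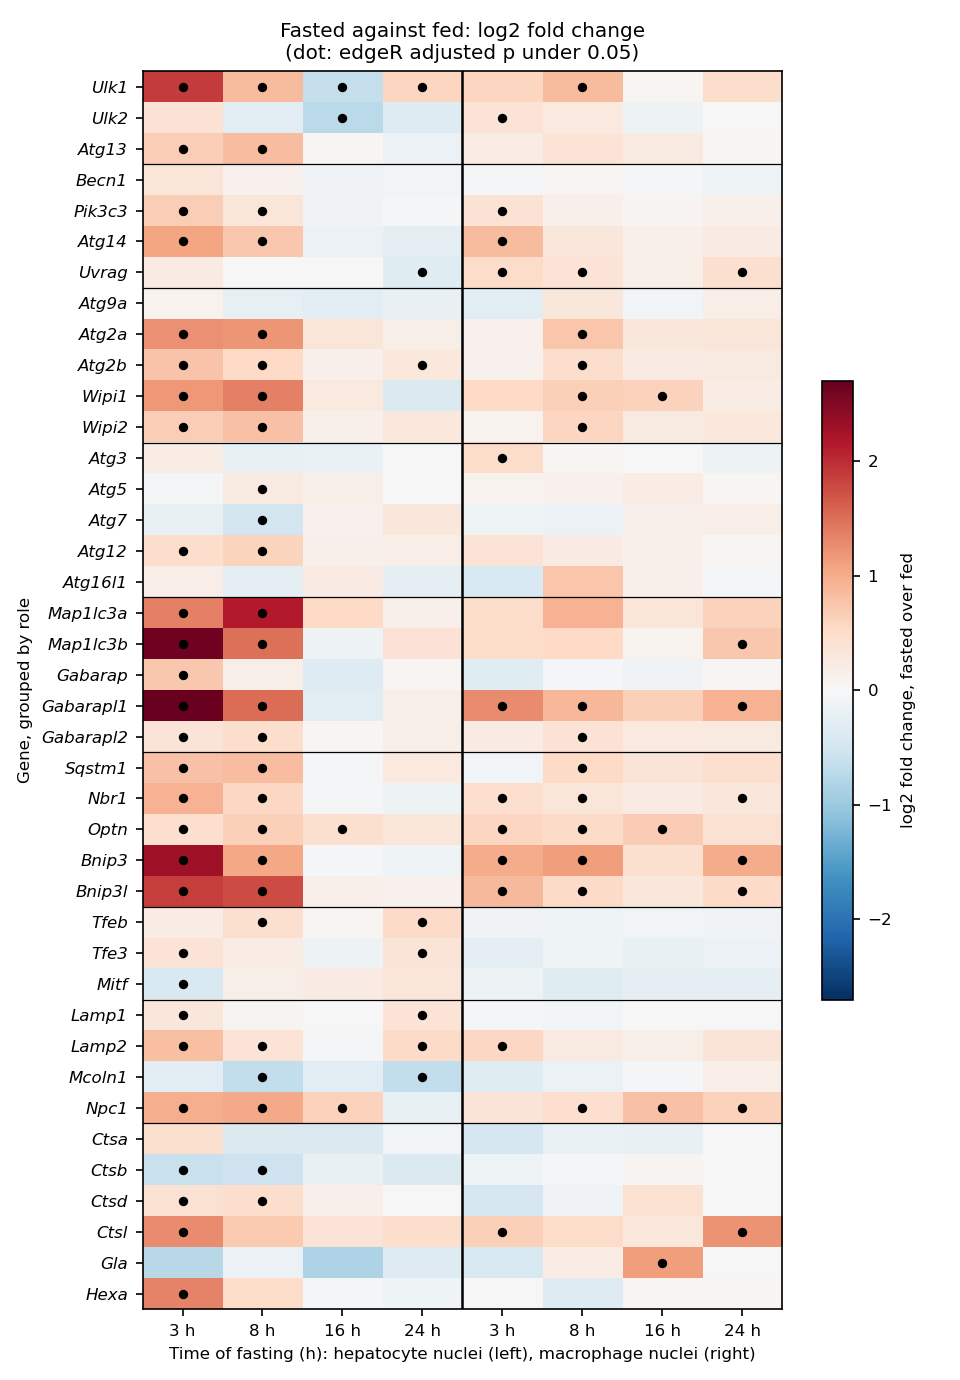
Log2 change, fasted against fed, of each of the 40 members (rows, ordered by role) at each time (columns, in h) in hepatocyte and macrophage nuclei, with a mark on the values that passed the test. The columns with most marks are hepatocyte nuclei at 3 h (28 of 40) and 8 h (26 of 40), and in macrophage nuclei every marked value is positive.

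Ulk1 (chr5:110784489-110810081, mm10, minus strand), the kinase that starts autophagosome formation, stood at 70.4, 65.7, 56.1 and 66.8 CPM in the 4 fed hepatocyte libraries at 3 h and at 238, 179.8, 281 and 216 CPM in the fasted ones. Every fasted library was above every fed one, a log2 change of 1.88 ± 0.20 (adjusted p = 5.06e-08; log2 changes are given ± SE throughout). At 8 h the difference was 0.86 ± 0.20. At 16 h the order turned: fed libraries held 177, 196, 116 and 115 CPM and fasted ones 91.6, 104, 90.1 and 96.5 CPM, again without overlap, and the change was -0.64 ± 0.20 (adjusted p = 0.0222). At 24 h Ulk1 was higher again, at 206, 204, 155 and 203 CPM fasted beside 108, 164, 138 and 112 CPM fed, and the groups overlapped. It was the 1 member called in both directions in hepatocyte nuclei. The 16 h call of Ulk1 was lost in the edgeR fit to the 8 libraries of that time (adjusted p = 0.0711). Its paralogue Ulk2 fell at 16 h, from 258, 205, 172 and 259.9 to 177, 126, 81.2 and 152 CPM in overlapping groups (-0.72 ± 0.17), and did not pass the test at the other 3 times. The Ulk2 call was also lost in the edgeR fit to the 8 libraries of 16 h (adjusted p = 0.0953). Atg13, the scaffold that carries mTORC1 signals to the kinase, rose by 0.66 ± 0.18 at 3 h and 0.82 ± 0.18 at 8 h on the log2 scale.

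Of the lipid kinase genes, Atg14, the subunit that directs the complex to autophagosome formation, rose by 1.07 ± 0.17 at 3 h and 0.73 ± 0.18 at 8 h, and Pik3c3, the catalytic subunit, by 0.67 ± 0.10 and 0.32 ± 0.10. Without fasted 8 h replicate 4 the 8 h change of Pik3c3 was 0.28 and was not called. Becn1, the shared scaffold, did not pass the test at any time; its log2 changes ran from -0.092 to 0.34. Uvrag, which replaces ATG14 in the complex that acts on endosomes and autophagosome maturation, passed the test in hepatocyte nuclei at 24 h alone. There it stood at 481, 472, 537 and 542 CPM in fed and 411, 438, 394 and 362 CPM in fasted libraries. Fasted libraries were all lower (-0.32 ± 0.098, adjusted p = 0.0172). The call was lost in the edgeR fit to the 8 libraries of that time (adjusted p = 0.0587).

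Of the 5 genes of membrane supply 4 rose at both early times. Atg2a and Atg2b, which encode lipid transfer proteins, and Wipi1 and Wipi2, which read the lipid mark, rose by 0.66 to 1.23 at 3 h and 0.55 to 1.37 at 8 h on the log2 scale. Wipi1 had the highest value at 8 h, 1.37 ± 0.23, and Atg2a at 3 h, 1.23 ± 0.19. Atg9a, the membrane-spanning scramblase of the same step, did not pass the test at any time. Atg2b was also higher at 24 h (0.29 ± 0.098), a call lost in the edgeR fit to the 8 libraries of that time (adjusted p = 0.0782).

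Of the 5 conjugation genes 1 rose at 3 h, and 2 rose and 1 fell at 8 h. Atg12, the ubiquitin-like modifier, was higher at 3 h (0.47 ± 0.13) and 8 h (0.59 ± 0.13), and its partner Atg5 at 8 h alone (0.25 ± 0.091). Atg7, the enzyme that activates both ubiquitin-like systems, fell at 8 h (-0.49 ± 0.13). Atg3 and Atg16l1 did not pass the test at any time in hepatocyte nuclei. At 16 and 24 h none of the 5 was called.

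All 5 ATG8-family genes rose at 3 h. Gabarapl1 (chr6:129533192-129542331, mm10, plus strand), a GABARAP-class member, stood at 30.6, 20.1, 28.1 and 22.1 CPM in fed and 171, 159, 154 and 131 CPM in fasted libraries, so that its lowest fasted library was more than 4 times its highest fed one. Map1lc3b (chr8:121590468-121598047, mm10, plus strand), which encodes LC3B, stood at 8.00, 6.93, 6.89 and 6.12 CPM fed and 41.9, 34.4, 46.2 and 42.6 CPM fasted, with no overlap. Map1lc3a, at 0.286 ± 0.109 CPM (SD, n = 4) in fed libraries, was 1 of the least abundant members and rose by 1.36 ± 0.42 at 3 h and 2.14 ± 0.43 at 8 h. At 8 h Gabarapl1 was 47.4, 72.4, 53.6 and 118 CPM in fasted beside 15.7, 18.9, 30.6 and 40.5 CPM in fed libraries, a log2 change of 1.52 ± 0.32, and 1.202 without fasted replicate 4, which held the highest fasted value. Map1lc3b at 8 h was 10.6, 27.5, 13.6 and 42.2 CPM in fasted and 4.96, 6.84, 8.31 and 14.2 CPM in fed libraries, a change of 1.49 ± 0.29, and 1.07 without that library. Gabarap rose at 3 h alone (0.74 ± 0.22) and Gabarapl2 by 0.35 ± 0.14 and 0.48 ± 0.14 at 3 and 8 h. Without fasted 8 h replicate 4 the 8 h change of Gabarapl2 was 0.32 and was not called. No ATG8 gene was called at 16 or 24 h.

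All 5 receptors rose at both 3 and 8 h. Bnip3 (chr7:138890836-138909506, mm10, minus strand), a mitochondrial outer membrane receptor, stood at 44.0, 36.1, 51.2 and 44.0 CPM in fed and 194, 281, 175 and 178 CPM in fasted libraries at 3 h, far outside each other's range (2.30 ± 0.24, adjusted p = 2.84e-08). Bnip3l, its paralogue on mitochondria, went from 31.6, 21.1, 22.0 and 19.1 to 93.3, 64.2, 95.6 and 73.7 CPM at 3 h (1.86 ± 0.20) and from 16.1, 15.9, 29.7 and 28.6 to 54.1, 73.0, 69.2 and 96.5 CPM at 8 h (1.76 ± 0.20). In both Bnip3l comparisons the groups were apart. Bnip3 at 8 h had a change of 1.05 ± 0.23, and of 0.71 without fasted replicate 4. Sqstm1, the p62 receptor for ubiquitinated cargo, stood at 92.1, 72.2, 75.7 and 70.5 CPM fed and 134, 124, 132 and 122 CPM fasted at 3 h (0.78 ± 0.13), without overlap, and rose by 0.83 ± 0.13 at 8 h. Nbr1, a p62-like receptor, rose by 0.94 ± 0.13 and 0.55 ± 0.13. Optn, a receptor for ubiquitinated mitochondria, was the 1 receptor still called at 16 h, at 394, 409, 458 and 389 CPM in fasted beside 386, 324, 197 and 328 CPM in fed libraries (0.44 ± 0.14, adjusted p = 0.0322). Those groups did not overlap, but the 16 h call was lost without fed replicate 3, which held 197 CPM. It was also lost in the edgeR fit to the 8 libraries of that time (adjusted p = 0.207).

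**Figure D2:**
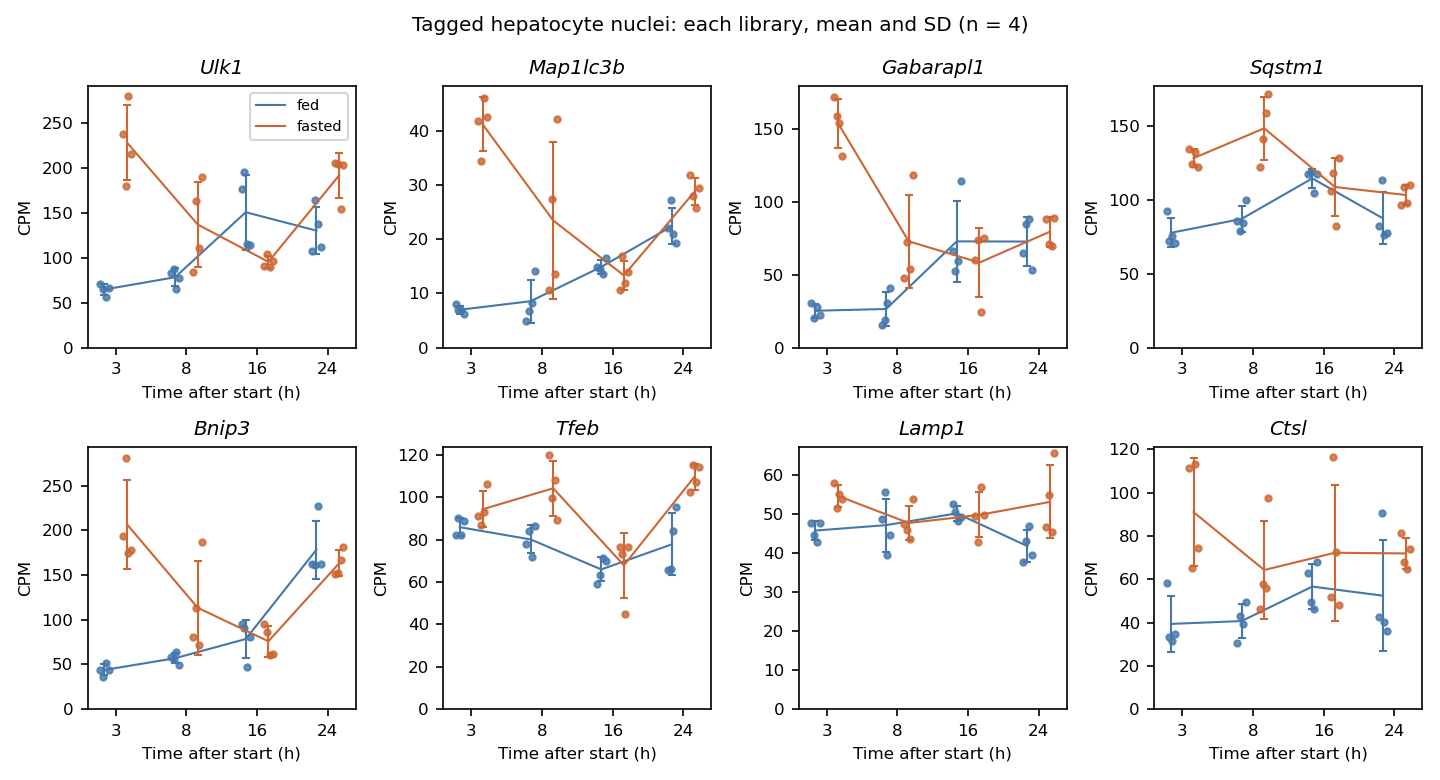
CPM in each hepatocyte library (points) by time (h) for 8 members of the set, fed and fasted libraries in separate colours, with lines through the group means and bars for the SD (n = 4). Fasted and fed libraries of Ulk1, Map1lc3b, Gabarapl1 and Bnip3 lie apart at 3 h and close together or overlapping at 24 h, where the fed means have risen.

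The MiT/TFE factor genes moved by less than 1 log2 unit. Tfeb, the factor best known for lysosomal gene control, stood at 77.8, 84.3, 72.0 and 86.5 CPM fed and 119.8, 99.7, 108 and 89.4 CPM fasted at 8 h (0.44 ± 0.14) and at 65.6, 66.3, 83.9 and 95.6 CPM fed and 102, 115, 107 and 114 CPM fasted at 24 h (0.51 ± 0.14), with every fasted library above every fed one both times. Tfe3 rose at 3 h (0.38 ± 0.12) and 24 h (0.34 ± 0.12). Its 24 h call was lost in the edgeR fit to the 8 libraries of that time (adjusted p = 0.0733). Mitf fell at 3 h, from 235, 254, 195 and 197 to 158, 183, 149 and 143 CPM without overlap (-0.42 ± 0.14), and was not called later. These are transcript levels; the factors are known to be controlled mainly by phosphorylation and entry into the nucleus, which was not measured.

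Lysosomal membrane genes did not share a direction. Lamp2, a major glycoprotein of that membrane, rose at 3 h (0.81 ± 0.14), 8 h (0.36 ± 0.14; not called without fasted replicate 4) and 24 h. At 24 h its libraries held 289, 364, 352 and 280.4 CPM fed and 501, 438, 433 and 453 CPM fasted, apart from each other (0.53 ± 0.14). Lamp1, with 4 E-box cores in the stretch printed above, stood at 47.6, 44.7, 42.8 and 47.7 CPM fed and 58.0, 51.5, 55.1 and 53.8 CPM fasted at 3 h, a change of 0.32 ± 0.11 without overlap, and was higher again at 24 h (0.36 ± 0.11). The 24 h call of Lamp1 was lost in the edgeR fit to the 8 libraries of that time (adjusted p = 0.0767). Mcoln1, the lysosomal calcium channel and the other promoter printed with several E-boxes, went the other way: it fell at 8 h, from 56.4, 52.8, 49.2 and 47.6 to 34.9, 28.8, 32 and 28.2 CPM (-0.68 ± 0.14), and at 24 h, from 54.1, 62.9, 59.3 and 47.6 to 30.3, 39.9, 35.0 and 35.2 CPM (-0.65 ± 0.14), both without overlap. Npc1, which exports cholesterol from lysosomes, rose by 0.99 ± 0.21, 1.02 ± 0.21 and 0.63 ± 0.21 at 3, 8 and 16 h. At 16 h its libraries held 395, 251, 170.5 and 253 CPM fed and 551, 448, 258 and 378 CPM fasted, with overlap. The 16 h call was lost without fed replicate 3 and in the edgeR fit to the 8 libraries of that time (adjusted p = 0.202). The Npc1 span overlaps 3110002H16Rik, which was higher at 3 h (0.34 ± 0.11) and 8 h (0.39 ± 0.11), and the use of strand in counting was not given in the sources used here, so their reads may not be separable.

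Among the hydrolases, Ctsl, a cysteine protease, stood at 58.5, 33.1, 31.3 and 34.5 CPM fed and 112, 65.2, 113 and 74.3 CPM fasted at 3 h, all fasted libraries being higher (1.27 ± 0.29). Hexa, which degrades gangliosides, rose by 1.34 ± 0.22 at 3 h and was not called later, and Ctsd, an aspartic protease, rose by 0.41 ± 0.14 and 0.48 ± 0.14 at 3 and 8 h. Ctsb, another cysteine protease, fell: its libraries held 96.4, 92.2, 91.3 and 92.2 CPM fed and 52.5, 74.5, 47.6 and 59.5 CPM fasted at 3 h, without overlap (-0.61 ± 0.17), and the change at 8 h was -0.55 ± 0.17, not called without fasted replicate 4. Ctsb overlaps Fdft1, a cholesterol synthesis gene on the opposite strand whose transcript fell by 3.59 at 3 h and 3.61 at 8 h on the log2 scale in the same nuclei. Whether reads of Fdft1 entered the Ctsb counts was not tested. Ctsa overlaps 2 genes of the opposite strand, Pltp, a phospholipid transfer protein gene whose log2 changes were -1.91 at 3 h and -2.76 at 8 h in these nuclei, and Neurl2, with -0.58 (not called) and -2.77. Whether their reads entered the Ctsa counts, and with them its levels and its difference between cell types, was not tested. Neither Ctsa nor Gla passed the test at any time in hepatocyte nuclei.

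The size of the fasting effect differed between the 4 times for 22 of the 40 members in hepatocyte nuclei, beside 32.8% of all genes tested (edgeR test of equal effects, 3 degrees of freedom in the contrast). Fed and fasted levels both moved over the day. In fed hepatocyte nuclei 21 members differed between times of day (30.1% of all genes): fed means from 3 to 24 h were 64.8, 78.5, 151 and 130.5 CPM for Ulk1, 6.99, 8.56, 14.9 and 22.4 CPM for Map1lc3b, 25.2, 26.4, 72.8 and 72.6 CPM for Gabarapl1 and 43.8, 56.9, 78.5 and 178.5 CPM for Bnip3. The fed value was thus lowest at zeitgeber time 15 for each of the 4 genes. Fasted means at the same times were 229, 137, 95.6 and 192 CPM for Ulk1, 41.3, 23.5, 13.3 and 28.8 CPM for Map1lc3b, 154, 72.8, 58.2 and 79.5 CPM for Gabarapl1 and 207, 113, 75.9 and 163 CPM for Bnip3. The fasted value was highest at 3 h and lowest at 16 h for each. Fasted Bnip3 at 24 h (163 CPM) and fed Bnip3 at the same hour (178.5 CPM) did not differ past the test (-0.11 ± 0.23). The fed libraries that set the time-of-day test are also the controls of the fasting comparisons, so both sets of values share them.

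In macrophage nuclei every fasting change of a member that passed the test was upward. After 3 h 12 of the 40 members rose and none fell, beside 7.70% and 4.68% of the 13864 genes tested (12.4% in all). The count was 14 after 8 h, beside 7.44% of all genes higher and 5.40% lower (12.8% in all). It was 4 after 16 h, beside 7.72% higher and 5.99% lower (13.7% in all), and 8 after 24 h, beside 5.31% higher and 6.35% lower (11.7% in all). The median log2 change of the set was 0.16, 0.30, 0.15 and 0.19 at the 4 times, and that of all genes tested -0.054, 0.012, 0.038 and -0.00097. In all, 22 members were higher at 1 or more times and 18 at none, and 6 were higher at both 3 and 8 h. Fasted and fed libraries did not overlap for 13, 15, 4 and 14 of the 40, beside 15.4%, 21.6%, 17.7% and 19.8% of all genes tested. The hepatocyte marker sum of the macrophage libraries moved in the same comparisons: its medians were 8770 CPM fed and 12580 CPM fasted at 3 h, 7061 and 11700 CPM at 8 h, 7655 and 9410 CPM at 16 h and 10830 and 14650 CPM at 24 h, and 5, 9, 2 and 2 of its 20 genes were called higher. Without fasted 3 h replicate 3, 2 of the 20 were higher at 3 h. Of 10 sinusoidal endothelial markers 2, 4, 0 and 2 were higher and none lower, and of 8 cholangiocyte markers 1, 1, 1 and 0 were lower and none higher, with a median cholangiocyte sum of 190.4 CPM fed and 94.1 CPM fasted at 8 h. The part of these transcripts in the members' changes was not tested. Of the 18 members that were lower in macrophage nuclei than in unpurified liver, 8, 10, 3 and 5 were called higher with fasting at the 4 times, and of the 15 members that were higher there than in unpurified liver, 3, 1, 1 and 1.

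The 3 h and 8 h calls in macrophage nuclei depended in part on single libraries. Without fasted 3 h replicate 3, whose hepatocyte marker sum stood apart, 10 members were called at 3 h, 7 of them among the original 12: Ulk2, Uvrag, Atg3, Optn and Ctsl were lost, and Ulk1 (0.84), Map1lc3b (0.68) and Gabarapl2 (0.33) were gained. At 8 h the count of 14 became 2 (Wipi2 and Bnip3) without fasted replicate 3, 7 without fasted replicate 4, and 5, 3 and 8 without fed replicates 1, 2 and 3. At 24 h the count of 8 became 4 without fasted replicate 4 and 3 and 4 without fed replicates 1 and 2. Fitted to the 8 libraries of the comparison alone, 2 members, Gabarapl1 and Bnip3, were called at 3 h.

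Gabarapl1, Bnip3, Bnip3l, Nbr1 and Uvrag were called at 3, 8 and 24 h in macrophage nuclei. Gabarapl1 stood at 13.6, 27.9, 15.1 and 12.9 CPM fed and 45.7, 44.4, 36.5 and 45.1 CPM fasted at 3 h, without overlap (1.28 ± 0.28). It was higher also at 8 h (0.89 ± 0.28) and 24 h (0.95 ± 0.28). Bnip3 stood at 20.8, 19.5, 23.2 and 24.6 CPM fed and 55.2, 42.5, 34.5 and 47.0 CPM fasted at 3 h (0.999 ± 0.27), at 18.0, 18.1, 30.3 and 26.0 and 24.9, 54.3, 61.3 and 62.2 CPM at 8 h (1.14 ± 0.27) and at 38.5, 46.4, 47.6 and 34.8 and 61.7, 66.7, 64.9 and 143 CPM at 24 h (0.99 ± 0.27). The Bnip3 groups were apart at 3 and 24 h and overlapped at 8 h. Bnip3l rose at the same 3 times, by 0.88 ± 0.17, 0.52 ± 0.17 and 0.51 ± 0.17, and Nbr1 by 0.45 ± 0.095, 0.32 ± 0.095 and 0.31 ± 0.095.

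Map1lc3b, whose hepatocyte change was over 2 log2 units at 3 h, stood at 7.79, 10, 8.21 and 11.4 CPM fed and 15.5, 12.9, 7.26 and 17.9 CPM fasted in macrophage nuclei at 3 h, overlapping groups that did not pass the test (0.50 ± 0.20, adjusted p = 0.0913). Fasted replicate 3, whose hepatocyte marker sum was the highest of its group, held the lowest fasted value of Map1lc3b, as of Gabarapl1 and Bnip3. The 3 h calls of Ulk2, Uvrag, Atg3, Optn and Ctsl, by contrast, were lost without that library. The part of hepatocyte transcripts in these values was not tested. At 24 h the same gene was 9.52, 12.9, 11.6 and 11.3 CPM fed and 16.0, 19.4, 20.6 and 19.5 CPM fasted, without overlap (0.72 ± 0.20). Ulk1 was called at 8 h, at 55.0, 55.9, 51.5 and 70.7 CPM fed and 83.5, 97.1, 147 and 88.5 CPM fasted (0.85 ± 0.25). Sqstm1 was called at 8 h (0.54 ± 0.17) in overlapping groups, and Optn at 3, 8 and 16 h by 0.57 ± 0.17, 0.52 ± 0.17 and 0.69 ± 0.17. The 3 MiT/TFE genes and Lamp1 passed the test at no time; Tfeb, for example, stood at 189, 191, 151 and 169 CPM fed and 158, 172, 169 and 145 CPM fasted at 8 h, in overlapping groups.

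Uvrag was higher in macrophage nuclei at 3, 8 and 24 h of fasting. It was also more abundant there than in unpurified liver (0.88 ± 0.083 on the log2 scale), whereas Gabarapl1, Bnip3 and Nbr1 were less abundant there. Its libraries held 619.5, 738, 607 and 732 CPM fed and 778, 791, 1109 and 1192 CPM fasted at 3 h (0.50 ± 0.12), 774, 688, 640.5 and 628 and 825, 782, 861 and 1045 CPM at 8 h (0.37 ± 0.12) and 656, 679, 698 and 738 and 822, 906, 1144 and 948 CPM at 24 h (0.44 ± 0.12). The groups were apart each time, and the 3 h call was lost without fasted 3 h replicate 3. The 8 h call was lost without fasted 8 h replicate 3. By edgeR it was also lost with relative log expression factors (adjusted p = 0.0634), without the filter (0.0743) and in the 8-library fit (0.0815). Ulk2 and Pik3c3, also more abundant in macrophage nuclei than in unpurified liver, were called at 3 h alone (0.36 ± 0.11 and 0.39 ± 0.083).

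Of the lysosomal members, Ctsl rose in macrophage nuclei at 3 h (0.64 ± 0.19) and 24 h, where it stood at 14.1, 15.2, 15.8 and 16.6 CPM fed and 34.1, 31.1, 34.7 and 46.0 CPM fasted, apart from each other (1.22 ± 0.19). Npc1 rose at 8, 16 and 24 h by 0.46 ± 0.14, 0.78 ± 0.14 and 0.62 ± 0.14; at 16 h its libraries held 108, 152, 189 and 135 CPM fed and 302, 213, 236 and 236 CPM fasted, without overlap. Gla, an alpha-galactosidase and the member with the lowest level per length, was higher at 16 h, at 1.40, 1.72, 1.13 and 1.32 CPM fed and 3.52, 4.15, 1.84 and 2.56 CPM fasted (1.13 ± 0.28). Lamp2 rose at 3 h (0.57 ± 0.12). Ctsa, Ctsb, Ctsd and Hexa, the hydrolase genes most enriched in macrophage nuclei, passed the test at no time. None of the 40 had an effect that differed between times by edgeR (4.65% of all genes; 8 members at unadjusted p under 0.05, 4 adjusted by DESeq2), and 3 differed between times of day in fed macrophage nuclei, Bnip3, Lamp2 and Ctsl (12.8% of all genes). The latter count became 1 without fed 24 h replicate 1, 2 or 3 or fed 3 h replicate 1.

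**Figure D3:**
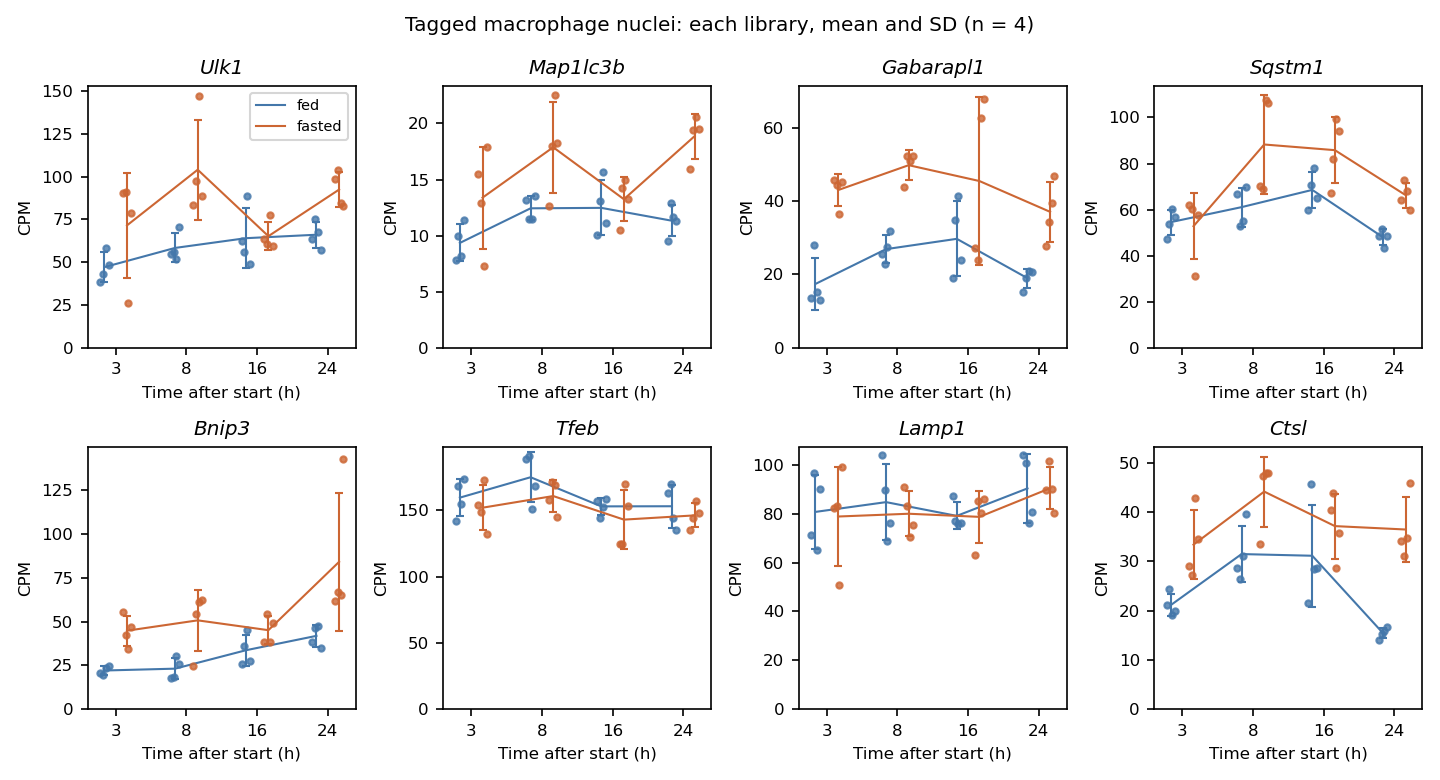
CPM in each macrophage library (points) by time (h) for the same 8 members, fed and fasted libraries in separate colours, with lines through the group means and bars for the SD (n = 4). Fasted Bnip3, Gabarapl1 and Ctsl libraries lie above all fed ones at 3 and 24 h, and those of Tfeb and Lamp1 overlap with the fed ones at every time.

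The difference between the cell types was tested directly, as the hepatocyte fasting effect minus the macrophage one over the 64 tagged libraries. At 3 h 15 of the 40 members had a higher effect in hepatocyte nuclei and none a lower one, beside 6.20% and 4.40% of the 14011 genes tested (10.6% in all). Map1lc3b differed by 2.17 ± 0.35 log2 units (adjusted p = 4.34e-05), Gabarapl1 by 1.43 ± 0.42, Hexa by 1.38 ± 0.27, and Ulk1 and Bnip3 by 1.34 ± 0.32 and 1.34 ± 0.35. The other 10 were Atg2a, Atg2b, Wipi2, Gabarap, Sqstm1, Nbr1, Bnip3l, Tfe3, Ctsa and Ctsd, by 0.54 to 1.14. Without macrophage fasted 3 h replicate 3 the count was 13, Tfe3 and Ctsa being lost, and without replicate 2, 3 or 4 of every group it was 9, 5 and 8. Over all genes called at 3 h, 58.5% had the higher effect in hepatocytes with the TMM scaling used here, 47.8% with relative log expression factors and 48.2% with DESeq2.

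At 8 h 3 members differed (7.62% of all genes, 3.86% with a higher and 3.76% with a lower effect in hepatocyte nuclei), Bnip3l by 1.31 ± 0.25, Hexa by 0.89 ± 0.27 and Tfeb by 0.63 ± 0.17, all with the higher effect in hepatocyte nuclei. At 16 h none did by edgeR (0.535% of all genes; 4 members at unadjusted p under 0.05, 1 adjusted by DESeq2). The closest was Gla (-1.89 ± 0.49, adjusted p = 0.0569), named after its value was seen. At 24 h Tfeb was again higher in hepatocyte nuclei (0.60 ± 0.17), and Uvrag (-0.77 ± 0.16) and Mcoln1 (-0.83 ± 0.20) had the lower effect there (4.05% of all genes, 2.10% higher and 1.95% lower). For Uvrag the direction was opposite in the 2 cell types at that hour: lower in fasted hepatocyte nuclei and higher in fasted macrophage nuclei, each past its own test. The hepatocyte call of Uvrag was lost in the edgeR fit to the 8 libraries of that time (adjusted p = 0.0587). Without macrophage fasted 3 h replicate 3 the counts at 8, 16 and 24 h were 5, 1 and 5. Without replicate 1 or 2 of every group 1 member was called at 8 h and 1 at 24 h.

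**Figure D4:**
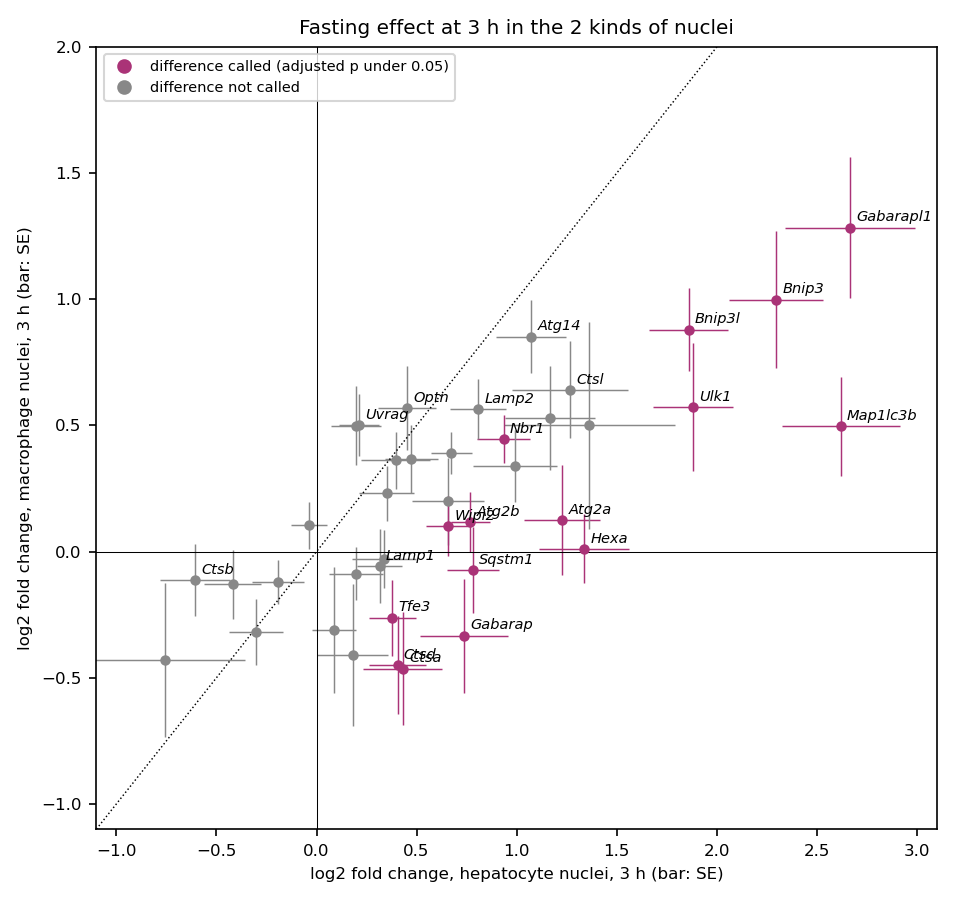
Log2 fasting effect at 3 h of each member in hepatocyte nuclei (x axis) against macrophage nuclei (y axis), with the line of equal effect and a separate colour for the 15 members whose effects differed in the test. Those 15 lie on the hepatocyte side of the line, Map1lc3b farthest from it.

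Where the members are expressed was compared within each line, tagged nuclei against the 8 unpurified pools. In macrophage nuclei 15 members were higher and 18 lower than in unpurified liver, beside 36.2% and 40.7% of all genes (76.8% in all). The 15 comprised 5 of the 6 hydrolases, the 3 MiT/TFE genes, Lamp1, Mcoln1, Ulk2, Becn1, Pik3c3, Uvrag and Atg7. Hexa (2.32 ± 0.10), Ctsb (2.27 ± 0.098), Mitf (2.06 ± 0.087), Ctsa (1.69 ± 0.14), Ctsd (1.62 ± 0.12) and Tfe3 (1.38 ± 0.091) had the highest log2 differences. The 18 lower members included Bnip3 (-1.09 ± 0.13), Gabarapl1 (-1.04 ± 0.13), Optn (-0.82 ± 0.082) and Ctsl (-0.80 ± 0.095), the 1 hydrolase below unpurified liver. In hepatocyte nuclei 18 members were higher and 3 lower, beside 28.8% and 21.5% of all genes (50.3% in all), and the differences were small, from -0.35 for Hexa to 0.45 for Atg16l1; the 3 lower were Hexa, Ctsb and Ctsd.

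**Figure D5:**
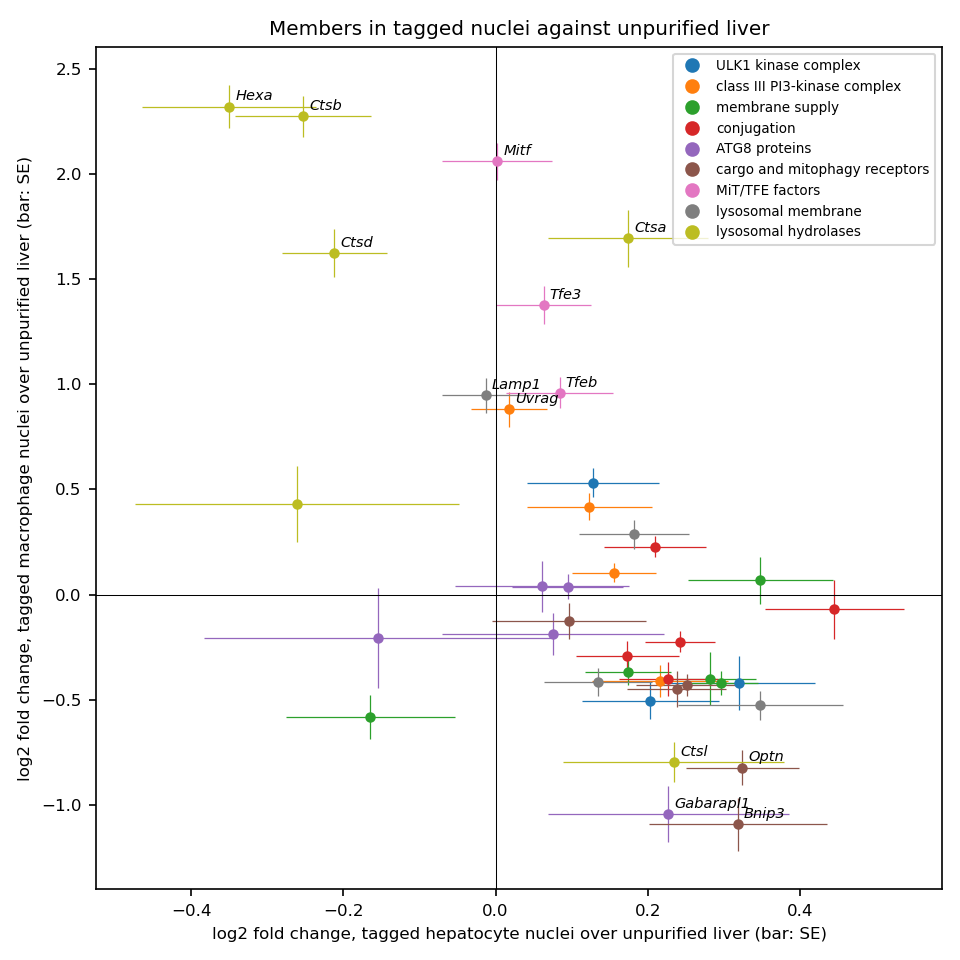
Log2 difference between tagged nuclei and unpurified liver nuclei for each member in hepatocyte and macrophage nuclei, with standard errors. The values for Hexa, Ctsb and Mitf lie above 2 in macrophage nuclei, and every hepatocyte value lies between -0.35 and 0.45.

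Levels were compared between genes as CPM per kb of gene span, since nuclear RNA includes introns. In hepatocyte nuclei the highest levels over the 32 libraries were those of Sqstm1 (10.01 ± 2.37 CPM per kb, SD), Optn (8.89 ± 1.76), Lamp2 (8.70 ± 2.29), Nbr1 (8.16 ± 1.99) and Gabarapl1 (7.68 ± 4.58), neighbours in that order lying within 1 SD of each other. In macrophage nuclei the order was led by Ctsb (17.7 ± 2.79), Ctsa (13.1 ± 2.83), Ctsd (6.74 ± 1.83), Lamp2 (6.32 ± 1.36) and Sqstm1 (6.15 ± 1.64). The cargo receptors Sqstm1 and Optn thus led the list in hepatocytes, and the cathepsins Ctsb, Ctsa and Ctsd in macrophages. Bnip3l, another receptor, ranked 24 of the 40 in hepatocytes, and Ctsl, another cathepsin, 13 in macrophages. Ctsb, Ctsa and Ctsd were apart from each other by more than 1 SD. Gla was lowest in both (0.0646 ± 0.0282 and 0.121 ± 0.0581).

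Over the 16 unpurified pools, with line and time in the model, 15 members were higher and 2 lower in fasted liver, beside 12.1% and 14.9% of all genes (27.0% in all). Of the 15, Optn (mean change over the 4 times 0.42 ± 0.066), Atg2a (0.65 ± 0.10), Atg2b (0.39 ± 0.068), Npc1 (0.52 ± 0.12) and Wipi2 (0.33 ± 0.080) had the smallest adjusted p, and Mcoln1 (-0.26 ± 0.080) and Ctsb (-0.28 ± 0.057) were the 2 lower. At 3 h the Map1lc3b pools read 6.61 and 8.51 CPM fed and 34.3 and 18.9 CPM fasted in the HEP-INTACT and MAC-INTACT lines. The fasted pool was the higher in each line. With 1 pool per line, feeding state and time, a single time was not tested.

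Genes of the same pathways outside the set were counted from lists of 18 to 40 genes. In hepatocyte nuclei 19.5% of all genes tested rose and 20.4% fell at 3 h, and 18.0% and 20.7% at 8 h. At 16 h the shares were 9.55% and 8.55%, and at 24 h 11.6% and 12.4%. In hepatocyte nuclei after 3 h, 15 of 24 other selective autophagy receptors and regulators rose and none fell, among them Calcoco1 (2.45 ± 0.26), a receptor for the endoplasmic reticulum and Golgi, and Fam134b (2.23 ± 0.42), a receptor for the endoplasmic reticulum. Of 27 other genes of the autophagy machinery 12 rose and 4 fell, and after 8 h 11 rose and 6 fell, with Atg16l2 (1.69 ± 0.32) and Wdr45 (1.201 ± 0.21) highest and Irgm1 (-1.40 ± 0.21) and Tecpr1 (-0.96 ± 0.14) lowest. Lysosomal genes went both ways: 12 of 40 other hydrolases and their cofactors rose at 3 h and 9 fell, Grn (1.498 ± 0.29) and Ctsf (1.497 ± 0.20) being highest and Sgsh (-1.74 ± 0.31) and Pla2g15 (-1.62 ± 0.31) lowest. Of 27 other lysosomal membrane genes 8 rose and 3 fell at 3 h, with Cd68 (1.01 ± 0.34) and Ctns (0.93 ± 0.12), the cystine exporter, highest and Slc36a1 (-1.08 ± 0.21) and Tmem55a (-0.63 ± 0.14) lowest. Cd68 is also 1 of the 18 Kupffer cell and macrophage markers, whose median sum was 148 CPM fed and 268 CPM fasted in the same comparison. The part of macrophage transcripts in its change was not tested. Of 18 subunits of the proton pump that acidifies lysosomes 8 rose and 2 fell at 3 h, and 8 rose and 4 fell at 8 h, with Atp6ap2 (0.97 ± 0.14) and Atp6v1e1 (0.83 ± 0.14) highest and Atp6v0d2 (-2.12 ± 0.53) and Tcirg1 (-0.96 ± 0.18) lowest. Among 36 genes of the mTORC1 and AMPK pathways 13 rose and 6 fell at 3 h, with Ddit4 (3.03 ± 0.82), an inhibitor of mTORC1, and Flcn (2.01 ± 0.23) highest and Gatsl2 (-1.498 ± 0.30) and Prkab2 (-0.60 ± 0.21) lowest. At 16 and 24 h the receptors had 3 and 6 members higher and 2 and 1 lower, the machinery 2 and 5 higher and 4 and 4 lower, and the hydrolases 4 and 4 higher and 2 and 8 lower. Without hepatocyte fasted 8 h replicate 4 the 8 h counts were 9 higher and 6 lower for the machinery and 6 and 4 for the pump subunits.

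In macrophage nuclei at 3 h, 8 of the 24 receptor genes rose and none fell, with Trp53inp1 (1.83 ± 0.33) and Fam134b (1.10 ± 0.26) highest, and 4 of the 27 machinery genes rose and 1 fell, with Ei24 (1.15 ± 0.20) and Rb1cc1 (0.62 ± 0.11), a partner of the ULK1 kinase, highest. At 8, 16 and 24 h 7, 5 and 4 receptor genes rose and none fell. Of all genes tested in macrophage nuclei 7.70% rose and 4.68% fell at 3 h, and 7.44% and 5.40% at 8 h. The shares were 7.72% and 5.99% at 16 h and 5.31% and 6.35% at 24 h. At 3 h none of the 40 hydrolases rose and 1 fell. At 16 h Lipa (0.71 ± 0.18), the lysosomal lipase, and Ctso (0.53 ± 0.14) rose and Ids (-0.47 ± 0.15) fell. Of the 36 mTORC1 and AMPK genes 2 rose at 3 h, Ddit4 (3.56 ± 0.67) and Fnip1 (0.51 ± 0.14), and 2 fell. Without macrophage fasted 3 h replicate 3, the receptors had 6 genes higher at 3 h, Fam134b no longer among them, the machinery 3 higher and none lower, the hydrolases none either way, and the mTORC1 and AMPK genes 1 higher, Ddit4, and none lower. Against unpurified liver, 32 of the 40 hydrolases, 18 of the 27 membrane genes and 14 of the 18 pump subunits were higher in macrophage nuclei. Of the 24 receptors 4 were higher and 15 lower there. Of all genes tested 36.2% were higher and 40.7% lower.

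The authors' deposited table of hepatocyte fold changes lists 20 of the 40 members, with 16, 17, 2 and 3 of them higher and 0, 0, 1 and 0 lower at the 4 times; 16, 16, 3 and 2 of those calls were also made here. Ctsl at 8 h and Wipi2 at 24 h were called by the authors and not here, and Ulk1 at 24 h here and not by the authors. The authors' deposited table for macrophages lists 12 members, with 1 higher at 3 h and 1 at 24 h, both also called here, and none at 8 and 16 h. Among those 12, Ulk2 at 3 h and Uvrag at 8 h were called here and not by the authors. Both deposited tables are labelled selective, and each of the 12 was higher here in macrophage nuclei than in unpurified liver. Of the 20 in the hepatocyte table, Gabarapl1, Lamp2, Wipi1, Ctsl and Atg13 were not called higher here in hepatocyte nuclei than in unpurified liver. A member that is not listed has no call by the authors to compare.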

How the data were processed

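Nuclear RNA-seq of tagged hepatocyte nuclei, tagged macrophage nuclei and unpurified liver nuclei was used as the authors deposited it: a table of raw counts per gene with gene positions and a length column in base pairs, and the authors' tables of log2 fold changes with adjusted p-values and normalized signal. Per the submitters' processing notes the tools were STAR 2.4.2a and DESeq2 1.24.0 and the build mm10; neither the counting tool nor its use of strand is stated in the sources used here. The length column equals the end minus the start of the gene, so levels per kb are per gene span. The normalized signal was not used for tests.

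From the deposited counts, fasted and fed libraries were compared in R 4.3.3 with edgeR 4.0.16 (filterByExpr with a count minimum of 10 and a total of 15, TMM factors, robust quasi-likelihood F-test), with Benjamini-Hochberg adjustment over all genes tested and a threshold of 0.05. Each cell type was fitted over its 32 tagged libraries, the difference between cell types over 64, each line's tagged nuclei against its 8 pools with condition as a term, and the 16 pools with line and time as terms. Standard errors are the log2 change divided by the square root of F. CPM printed here use TMM-scaled library sizes over all 80 libraries. Library totals, 12597786 to 44694933 counts, set the counting precision. Groups came from the sample titles.

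Alternatives were DESeq2 1.42.0, relative log expression factors, no filter, the 8 libraries of a comparison alone, and the run of library numbers as a term. Each library was also left out of the fits within a cell type. For the difference between cell types and for tagged nuclei against the pools, 1 replicate number of every tagged group was left out at once. Leaving out the 2 libraries that stood apart, for the difference between cell types and for the pathway and marker lists, was chosen after seeing the data. The members, the lists and the rule for named genes were chosen with earlier results of these data known. Members shown library by library were those among the 2 highest or 2 lowest called changes of a cell type and time at a mean of at least 1 CPM, plus Map1lc3b, Gabarapl1, Sqstm1, Ulk1, Bnip3, Tfeb, Lamp1 and Ctsl. Genes named from the other lists were those among the 2 highest or 2 lowest at the time with most calls. On simulated counts for the hepatocyte 3 h comparison the script recovered 134 of 200 changed genes (67%) with 7 false calls.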

Additional observations from a re-analysis of the deposited data

Results flagged for a closer look

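In groups of 4 libraries, each of the 18 members with printed values was examined for a library far from the other 3; 23 of 288 groups had one, where chance gives about 1 in 20. In hepatocyte nuclei these were Ulk1 fasted 24 h replicate 3 at 154.8 CPM, Sqstm1 fed 16 h replicate 3 at 104 CPM and fed 24 h replicate 2 at 113.5 CPM, Optn fasted 8 h replicate 4 at 565 CPM and fasted 24 h replicate 3 at 529 CPM, Bnip3 fed 24 h replicate 3 at 227 CPM, Tfeb fasted 16 h replicate 3 at 44.8 CPM, Mitf fed 16 h replicate 1 at 231 CPM, Mcoln1 fed 16 h replicate 3 at 43.1 CPM, Npc1 fed 24 h replicate 4 at 200.4 CPM, and Ctsl fed 3 h replicate 1 at 58.5 CPM and fed 24 h replicate 2 at 90.7 CPM. In macrophage nuclei they were Gabarapl1 fed 3 h replicate 2 at 27.9 CPM and fasted 3 h replicate 3 at 36.5 CPM, Sqstm1 fasted 3 h replicate 3 at 31.3 CPM, Optn fasted 8 h replicate 3 at 239 CPM, Bnip3 fasted 24 h replicate 4 at 143 CPM, Bnip3l fed 3 h replicate 2 at 29.8 CPM, Mitf fasted 24 h replicate 3 at 788 CPM, Lamp1 fed 16 h replicate 1 at 87.5 CPM, Lamp2 fasted 16 h replicate 2 at 386 CPM, Ctsl fasted 8 h replicate 1 at 33.5 CPM and Gla fed 24 h replicate 4 at 2.01 CPM.

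The fasting effect differed between the cell types in the direct edgeR test for 21 member and time pairs, given here as the hepatocyte minus the macrophage log2 effect. At 3 h these were Map1lc3b 2.17, Gabarapl1 1.43, Hexa 1.38, Ulk1 1.34, Bnip3 1.34, Atg2a 1.14, Gabarap 1.11, Bnip3l 1.03, Ctsa 0.94, Ctsd 0.90, Sqstm1 0.90, Atg2b 0.69, Tfe3 0.69, Wipi2 0.60 and Nbr1 0.54. At 8 h they were Bnip3l 1.31, Hexa 0.89 and Tfeb 0.63, and at 24 h Tfeb 0.60, Uvrag -0.77 and Mcoln1 -0.83.

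In hepatocyte nuclei the effect differed between times for 22 members. The adjusted p by edgeR was 2.95e-06 for Ulk1, 5.66e-06 for Bnip3l, 7.97e-06 for Bnip3, 4.13e-05 for Map1lc3b, 4.27e-05 for Gabarapl1, 1.31e-04 for Nbr1, 1.83e-04 for Atg14, 2.85e-04 for Wipi1, 4.20e-04 for Pik3c3 and 8.55e-04 for Sqstm1. It was 0.00219 for Hexa, 0.00221 for Atg2a, 0.00353 for Atg2b, 0.00411 for Wipi2, 0.00583 for Ulk2, 0.00596 for Npc1, 0.00677 for Atg7, 0.00744 for Atg13, 0.0101 for Lamp2, 0.0168 for Mitf, 0.0241 for Uvrag and 0.0391 for Map1lc3a.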

How the results depend on the processing

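No member's called change reversed under the alternatives run. Fitted to its own 8 libraries, a comparison called 0 members in hepatocyte nuclei at 16 h (4 with all libraries), 5 at 24 h (8) and 2 in macrophage nuclei at 3 h (12); fewer libraries inform the spread there. DESeq2 called 4 members (0 by edgeR) for an effect that differs between times in macrophage nuclei, and 1 (0) and 5 (3) for the difference between cell types at 16 and 24 h; the library run as a term gave 1 at 16 h; the cause was not tested. The other alternatives kept these counts within 1.5 times. With 1 library left out at a time, the count of members called ranged from 24 to 31, 22 to 27, 2 to 5 and 3 to 10 in hepatocyte nuclei at 3, 8, 16 and 24 h, and from 8 to 14, 2 to 15, 3 to 4 and 3 to 10 in macrophage nuclei. It ranged from 21 to 24 (hepatocyte) and 0 to 1 (macrophage) for effects that differ between times, and from 18 to 22 and 1 to 4 for time of day. For tagged nuclei against unpurified liver, 1 replicate number of every tagged group was left out at once, and the counts ranged from 20 to 22 and 31 to 36. The difference between cell types was fitted in that way and also without each of the 2 libraries that stood apart. Its counts ranged from 5 to 15, 1 to 5, 0 to 1 and 1 to 5 at the 4 times. Among all genes called, the share higher in hepatocyte nuclei than in unpurified liver was 57.3%, and 44.0% without the filter, and the share higher in macrophage nuclei at 3 h was 62.2%, and 78.5% in the 8-library fit, as was 56.3% and 46.0% at 16 h. The labels number the libraries without replicate numbers shared between groups; runs of those numbers, of which each macrophage run holds 1 library of every group, served as a block, and with it the fasting counts were 28, 26, 4 and 8 members in hepatocyte nuclei and 12, 14, 3 and 8 in macrophage nuclei at the 4 times (4 at 16 h without it). With 1 pool per line, feeding state and time, no pool could be left out. Genes near 1 CPM, such as Map1lc3a and Gla, are limited by depth.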
